A study of Mus musculus with 4 samples.

Results

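The Skint genes encode butyrophilin-like membrane proteins of the mouse epidermis and thymus, and their name stands for selection and upkeep of intraepithelial T cells. The 10 genes described here were taken by name, as Skint1 to Skint7 and Skint9 to Skint11, out of 32285 genes in each matrix. All 10 had UMIs (unique molecular identifiers, each marking 1 captured RNA molecule) in each of the 4 libraries. The eleventh gene of the family, Skint8, was kept beside them for comparison.

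Skint1 is the member with a known task: it is needed in the fetal thymus, and again in the skin, for the dendritic epidermal T cells of the mouse, a γδ T cell population that carries a single invariant receptor. These cells sit between keratinocytes and survey them for stress and wounds. The other members share the immunoglobulin-like outer part of Skint1, and far less is known of what each of them does.

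The samples were 4 libraries of adult mouse epidermis, 1 a group, from an experiment on loss of ΔNp63, the p63 isoform that maintains basal keratinocytes. Control mice were DNp63fl/fl, with floxed alleles and no Cre. Experimental mice, called ablated here, were DNp63fl/fl;K14-CreT2, in which the keratin 14 promoter of basal keratinocytes drives a Cre recombinase. All 4 groups received tamoxifen by gavage, 200 mg/kg on each of 5 days, and cells were taken 1 day or 1 week after ablation. Mice of either sex were used at 2 to 17 months of age. Which animals, ages, sexes or trypsin digestions (at 4 °C or at 37 °C) a library came from is not given in the labels. The kit was 3′ (version 3.1) at 1 day and 5′ (version 1.1) at 1 week, so each ablated library was set against the control of its own time point only. With 1 library a group there is no replicate check of any difference, and none was tested. All intervals are 95% intervals that cover counting error only.

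The libraries held between 68191870 and 179736563 gene UMIs, and 15639 to 23741 cells a library passed the filters. Levels are CPM, the UMIs of a gene per 1000000 gene UMIs summed over the same cells. Trp63, the targeted gene, stood at 403 CPM in keratinocytes of the 1-day control and 156 CPM in those of the ablated library, and at 451 and 161 CPM at 1 week. Its UMIs count the whole gene, so they do not separate the deleted isoform from the other. Keratinocytes made up 21076 of the 1-day control cells and 11794 of the 1-day ablated ones, with 6143 and 3114 a week after ablation. Kept apart from them were keratinocyte-like clusters with Krt8, a simple-epithelium keratin, among their 10 leading genes, called Krt8-high here, with 17 control cells and 8184 ablated ones at 1 day, then 1 and 448 at 1 week. Krt8 stood at 1101 and 1265 CPM in their ablated cells, against 213 and 183 CPM in the other ablated keratinocytes. Among the latter the 1-day cycling cells held 976 CPM, near the Krt8-high level. Of the 1-day Krt8-high cells 3906 ablated ones were in a cluster where Krt8 was the last of these 10, after Slurp1, Ly6c1 and Krt78, and where spinous markers scored highest. Also kept apart were mixed clusters with markers of several lineages, which took 0.863% (control) and 10.9% (ablated) of 1-day cells, and 66.2% and 74.9% of 1-week cells. The limits that set these clusters apart were chosen after the data were seen. Both libraries of the 1-week pair shared 443 cell barcodes and those of the 1-day pair 161, and every other pair shared 4 to 16.

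In control epidermis the summed Skint level was low in the basal layer and high in the differentiated layers and the upper follicle. Summed over the 10 members it was 78.4 CPM in basal interfollicular cells of the 1-day control, 659 CPM in spinous cells, 1204 CPM in granular cells and 541 CPM in the upper follicle. The bulge, the stem cell niche of the hair follicle, held 67.2 CPM. At 1 week the control library gave the same order where both layers could be measured, with 136 CPM in basal, 984 CPM in spinous, 864 CPM in upper follicle and 65.3 CPM in bulge cells. Its granular class held 30 cells, under the minimum of 50, and is given no level. The 1-day control granular class also held upper follicle markers, at 30675 CPM, above its granular markers at 14318 CPM. Upper follicle markers stood at 51525 CPM in the upper follicle class and 2452 CPM in spinous cells of that library. A granular cluster with 171 control cells had upper follicle as its second score. The granular class is thus not clearly apart from the follicle.

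**Figure D1:**
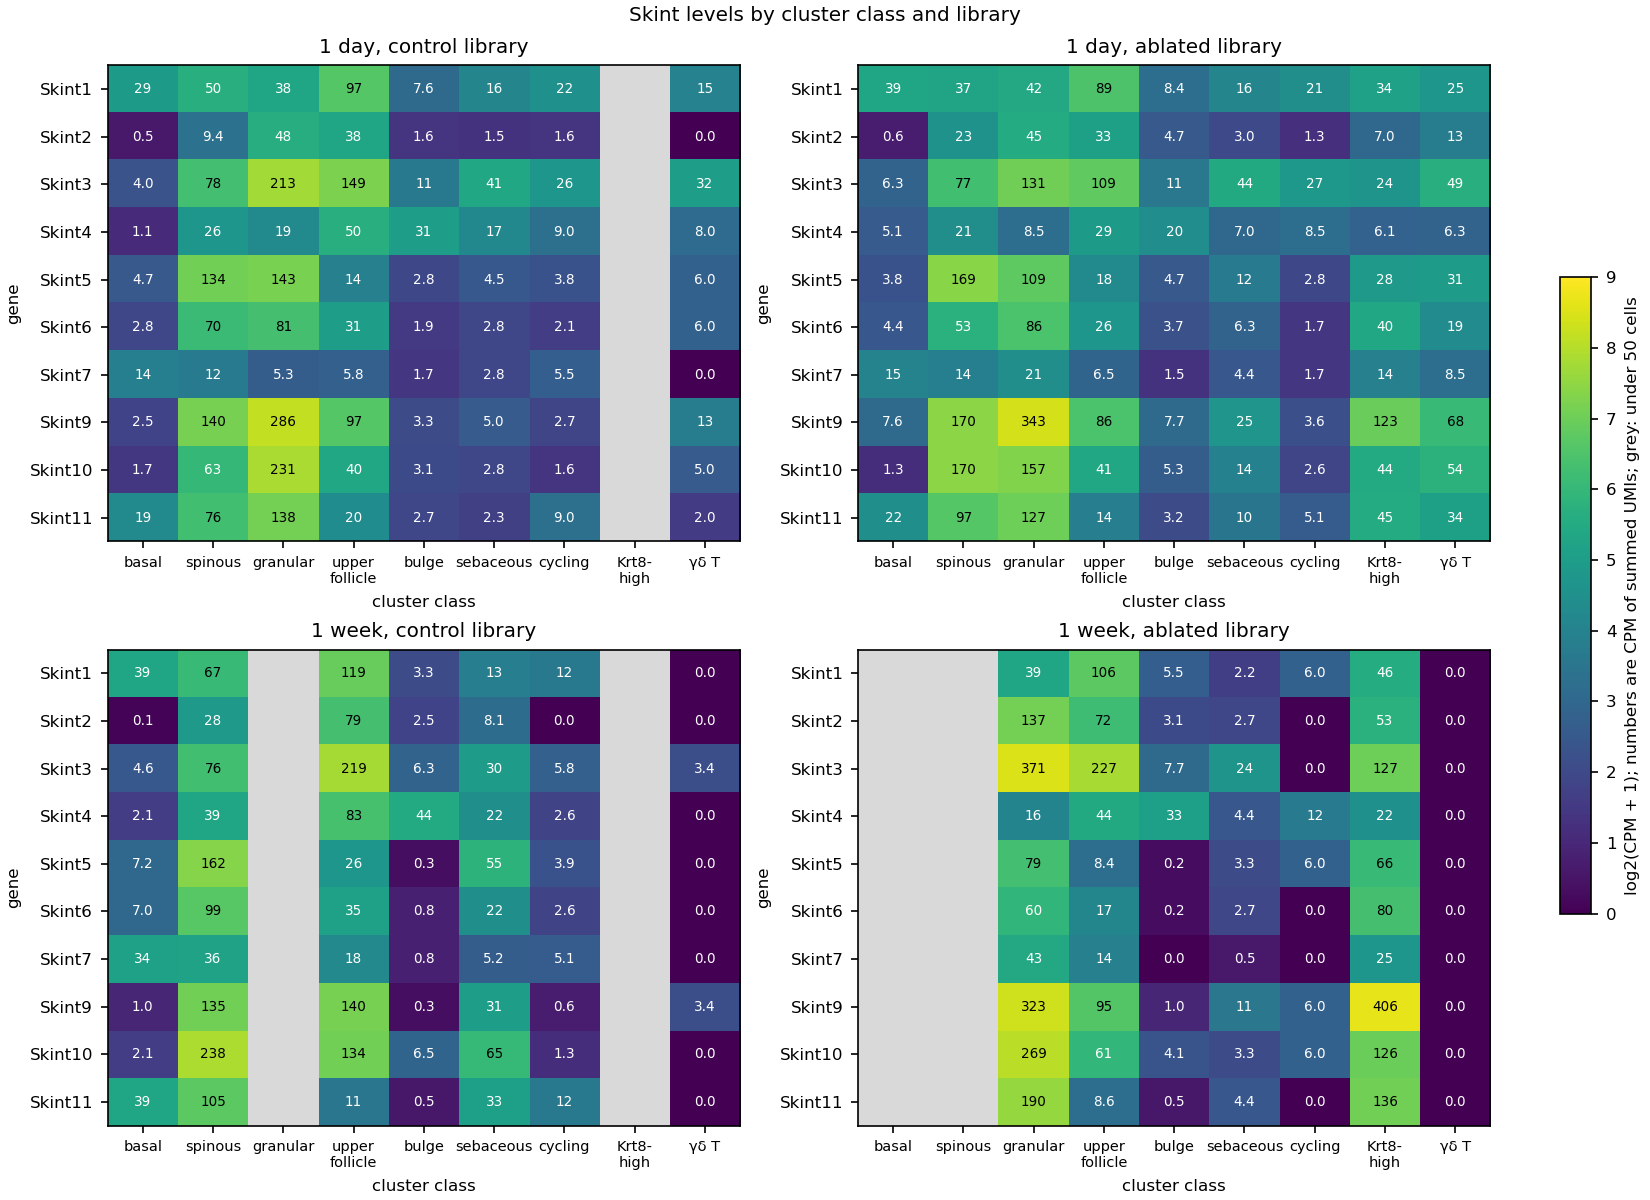
Level of each Skint gene (rows) in each cluster class (columns) of the 4 libraries, as CPM on a log colour scale. In all 4 panels the Skint genes are low in the bulge apart from Skint4, and in the 1-day control library the granular class is high for most members.

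A share of cells shows the same layers cell by cell. Each cell was thinned to 2000 UMIs so that depth did not set the share, which left out 2443 and 2071 shallower keratinocytes at 1 day (control and ablated) and 671 and 474 at 1 week. A UMI of any member was then found in 14.2% of basal cells (13.2 to 15.3), 54.6% of spinous cells (53.2 to 55.9), 80.2% of granular cells (75.7 to 84.2) and 59.1% of upper follicle cells (56.7 to 61.5) of that library. In the bulge it was 12.1% (10.9 to 13.4). Langerhans cells, a myeloid type that should lack Skint RNA, held one in 8.79% of cells (5.71 to 12.8) at a median depth of 2625 UMIs, against 4353 UMIs in basal and 2776 UMIs in bulge cells. The bulge share thus overlapped this background share of Langerhans cells, and the basal share lay just above it. In γδ T cells of that library, given further on, the summed level was no lower than in basal or bulge cells. The values of those classes therefore rest on single members. Whether UMIs in other lineages came from free RNA or from joined cells was not tested.

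**Figure D2:**
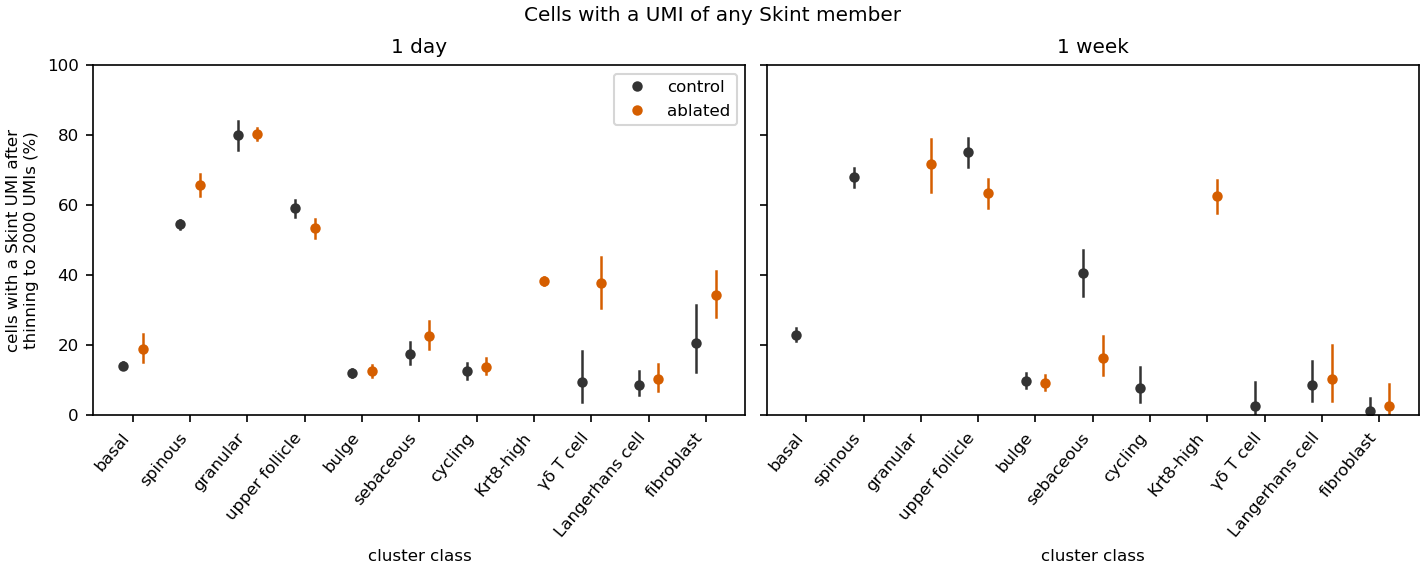
Share of cells with at least 1 UMI of any Skint member, after thinning each cell to 2000 UMIs, by cluster class, library and time point, with exact binomial intervals. Granular and spinous cells and the upper follicle lie above 50% and the bulge below 15% in each library that holds the class. The γδ T cells of the 1-day ablated library reach 37.8%.

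Skint1, the T cell selecting gene, was highest in the upper follicle, where Skint3 stood higher still, and was also found in the living interfollicular layers. In the 1-day control it stood at 96.8 CPM (89.9 to 104) in the upper follicle, 49.8 CPM in spinous, 37.7 CPM in granular and 28.7 CPM (26.5 to 31.0) in basal cells, and at 7.58 CPM in the bulge. The 1-week control gave 119 CPM in the upper follicle, 67.3 CPM in spinous, 38.6 CPM in basal and 3.25 CPM in bulge cells. The upper follicle was thus the highest class in both control libraries, with an interval that did not reach that of the next class, and the basal level lay above the 6.24 CPM of Langerhans cells.

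Skint7 and Skint11 were the other members with UMIs in the basal layer well above background. Skint7 stood at 13.9 CPM in basal and 12.3 CPM in spinous cells of the 1-day control, and at 34.4 and 35.7 CPM at 1 week, with overlapping intervals at both times. Skint11 was at 18.5 CPM in basal and 75.7 CPM in spinous cells at 1 day, and at 38.7 and 105 CPM at 1 week. Skint7 shares 11.4% of its exonic 50-base words with other genes, chiefly Skint8, so reads of this pair can be split or dropped between them and their values are less certain.

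In both control libraries Skint4 was highest in the upper follicle and next highest in the bulge, with spinous cells after them. In the 1-day ablated library spinous cells (20.7 CPM) came ahead of the bulge. The 1-day control level of Skint4 was 49.5 CPM (44.6 to 54.8) in the upper follicle and 31.1 CPM (28.0 to 34.6) in the bulge, against 1.13 CPM in basal and 25.5 CPM in spinous cells. At 1 week it was 82.7 CPM in the upper follicle and 44.3 CPM in the bulge, against 2.11 CPM in basal cells. Of the 762 Skint UMIs in 1-day control bulge cells 353 were of Skint4, and of the 261 at 1 week 177 were. In thinned cells 5.93% of 1-day control bulge cells and 0 of 273 Langerhans cells held a Skint4 UMI, and a count of 0 allows a Langerhans share of up to 1.34%.

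Skint2, Skint3, Skint5, Skint6, Skint9 and Skint10 were low in the basal layer and highest in the outer layers or the upper follicle. Skint9 went from 2.495 CPM in basal to 140 CPM in spinous and 286 CPM (268 to 306) in granular cells of the 1-day control. Skint10 had 1.72 CPM in basal, 62.7 CPM in spinous and 231 CPM (214 to 249) in granular cells. For Skint5 the granular level of 143 CPM and the spinous level of 134 CPM overlapped, and so did those of Skint6, at 81.0 and 70.1 CPM.

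Skint3 and Skint2 were highest in the granular class and next highest in the upper follicle of the 1-day control. The part of the upper follicle markers of that granular class in this was not tested. Skint3 stood at 213 CPM in granular and 149 CPM in upper follicle cells of the 1-day control, with 78.5 CPM in spinous and 3.99 CPM in basal cells. Skint2 was at 48.3 and 37.9 CPM in the same first pair of classes, which overlapped, and at 0.544 CPM in basal cells. At 1 week, without a granular level, the upper follicle was highest for Skint1, Skint2, Skint3, Skint4 and Skint9, and the spinous layer for Skint5, Skint6, Skint7, Skint10 and Skint11. Skint9 (140 CPM in the upper follicle and 135 CPM in spinous cells) and Skint7 overlapped with their next class.

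Genes outside the family that followed the summed Skint level most closely over the classes of both control libraries were Lipm, Rab11fip1, Dnase1l3, Slc39a2 and Tprg, by the mean Pearson r of log2(CPM + 1) over 7 classes at 1 day and 6 at 1 week. Lipm, which encodes a lipase of the outer epidermis, had a mean r of 0.986, and the other 4 lay between 0.983 and 0.984, among 11608 genes ranked. These r are descriptions: the classes share a library and were formed from the same cells.

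The 11 Skint genes lie side by side on mouse chromosome 4, at chr4:111919392-114245028 of GRCm38, a stretch of 2.33 Mb in which no other protein-coding gene is annotated. From the lower coordinate upward the order is Skint8, Skint7, Skint1, Skint4, Skint3, Skint9, Skint2, Skint10, Skint6, Skint5 and Skint11. In the 1-day control the 7 members from Skint3 to Skint11 in this order were all highest in the granular class, though Skint2, Skint5 and Skint6 overlapped with their next class. Skint1 and Skint4, highest in the upper follicle, lie just before them. This order was noticed after the values were seen. All 10 members matched the RefSeq table of promoters on GRCm38, in which the family has 12 entries, since Skint4 has a second start.

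Skint9, Skint10 and Skint11, a set chosen after the data were seen, share a 13-base word upstream of their starts, the longest run that all 3 hold. They were highest in the granular layer of the 1-day control without overlap with the next class, and so was Skint3, which lacks the word. Skint2, Skint5 and Skint6, also highest there, lack it too, so the word does not mark the granular members as a whole. It is shown in capitals in a 60-base window of each promoter, read 5′ to 3′ on the gene's strand. The windows lie at chr4:112434148-112434207 on the minus strand for Skint9, chr4:112774938-112774997 on the minus strand for Skint10 and chr4:114163299-114163358 on the plus strand for Skint11.
Skint9: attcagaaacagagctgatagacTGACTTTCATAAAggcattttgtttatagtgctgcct
Skint10: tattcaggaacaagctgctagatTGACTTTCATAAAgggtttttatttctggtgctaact
Skint11: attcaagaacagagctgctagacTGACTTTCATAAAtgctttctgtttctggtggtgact
Searched on both strands, TGACTTTCATAAA was in these 3 of 32851 promoters of the table and in no other. A word of 13 bases is seldom met in such a set, so its absence elsewhere was likely beforehand and does not mark it as special. The word was found by comparing the sequences themselves, and nothing in these libraries shows whether a factor binds it.

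A second word of 14 bases is the longest that at least 5 of the 12 family promoters hold. It links Skint1, Skint3, Skint4 (at its second start), Skint5 and Skint6, and is shown in capitals for the 3 members not printed in full further on. Their windows are at chr4:112006019-112006078 for Skint1, chr4:112232119-112232178 for Skint3 and chr4:112081400-112081459 for Skint4, all on the plus strand.
Skint1: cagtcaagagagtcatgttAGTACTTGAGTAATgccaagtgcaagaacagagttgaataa
Skint3: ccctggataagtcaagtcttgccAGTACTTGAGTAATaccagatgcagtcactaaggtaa
Skint4 second start: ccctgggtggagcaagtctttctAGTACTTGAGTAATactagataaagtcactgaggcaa
AGTACTTGAGTAAT was in 5 of 32851 promoters, all of the family. Its length of 14 bases likewise made a hit outside the family unlikely beforehand. These 5 genes did not share a layer: Skint1 and Skint4 were highest in the upper follicle, and Skint3, Skint5 and Skint6 in the granular class of the 1-day control. Of motifs searched by name or letters on both strands, TATAAA was in 7 of the 12 family promoters (12.4% of all promoters) and CACCC in 6 (52.0% of all). The AP-1 type motif TGANTCA was in that of Skint11 alone (6.75% of all), and 1 of the 2 repeats that make up a p53-family site, not a whole site, in that of Skint4 at its second start alone (7.13% of all).

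One day after ablation the summed Skint level over all keratinocytes was higher in the ablated library, 498 CPM (492 to 504) where the control held 369 CPM (366 to 373). The log2 ratio was 0.43 (0.41 to 0.46). Skint2, at 8.34 CPM (control) and 20.6 CPM (ablated), and Skint10, at 33.1 and 67.4 CPM, were at least 2-fold higher, with log2 ratios of 1.30 (1.18 to 1.43) and 1.02 (0.96 to 1.09). No member was 2-fold lower. Over all 14641 genes with at least 20 UMIs, 6.97% were 2-fold or more higher and 2.36% as far lower. The median log2 ratio was 0.23 over the 10 members and 0.07 over all these genes.

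Skint9 came close to the 2-fold mark, at 68.1 CPM in control and 133 CPM in ablated keratinocytes (log2 ratio 0.96). Skint11 was at 38.5 and 52.1 CPM, Skint3 at 61.2 and 74.5 CPM, and Skint6 at 31.6 and 35.6 CPM. Skint1, the T cell selecting member, was at 41.2 CPM (control) and 39.4 CPM (ablated), with an interval of the log2 ratio (-0.14 to 0.01) that includes 0. Skint7 (9.28 and 9.84 CPM) gave an interval that includes 0 too, and Skint5 was at 56.2 and 51.7 CPM. Skint4 was lower in the ablated library, at 21.5 CPM (control) and 14.7 CPM (ablated), a log2 ratio of -0.55 (-0.67 to -0.43).

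The layers did not have the same weights in both libraries. Basal and spinous cells numbered 4765 and 5265 in the 1-day control against 459 and 991 in the ablated library, and granular cells 377 against 2407. Granular and basal markers moved with this: granular markers, 8 of 8 detected in both libraries, were at 555 CPM in control and 2343 CPM in ablated keratinocytes, and basal markers, 9 of 9, at 9516 and 6122 CPM. Spinous markers, 7 of 7, did not follow the number of spinous cells, at 19263 and 21623 CPM. The basal and spinous counts leave out Krt8-high cells. Of the ablated Krt8-high cells, 3906 and 602 lay in clusters where spinous markers scored highest. Another 3676 lay in a cluster where basal was the highest keratinocyte class, at 0.841, under the naming limit of 1.8. Ratios within basal and spinous cells therefore cover only the ablated cells outside these clusters. With equal weight to each of 18 clusters that both libraries shared, the log2 ratio of the summed level was -0.15, and the sum was lower in the ablated library in 13 of the 18. Skint9 (-0.16), Skint3 (-0.37), Skint6 (-0.22) and Skint11 (-0.09) then had the opposite sign, Skint2 dropped to 0.08 and Skint10 to 0.27. These equal-weight values are ratios of mean CPM, to which clusters with high levels give most: Skint9 was higher in 12 of the 18 clusters and Skint6 in 10, while Skint3 and Skint11 were each lower in 11. With Krt8-high cells counted as keratinocytes 0 members were past 2-fold in either direction, where 5.7% of all genes were that far higher and 3.64% that far lower. Equal weighting and the count with Krt8-high cells were chosen after the data were seen.

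**Figure D3:**
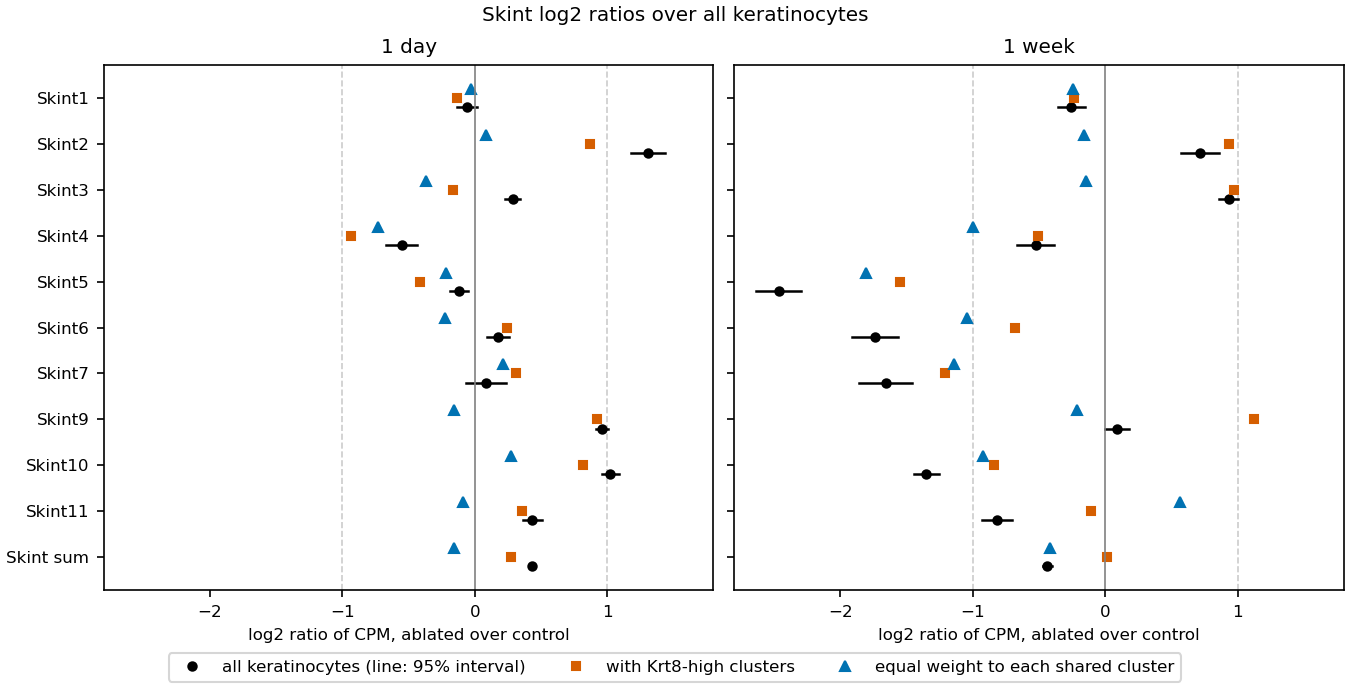
Log2 ratio of the ablated over the control library for each Skint member and their sum, at 1 day (left) and 1 week (right). Circles stand for all keratinocytes with 95% counting intervals, squares include the Krt8-high clusters, and triangles give equal weight to each cluster shared by both libraries. Dashed lines mark 2-fold. At 1 day the sum is right of 0 for all keratinocytes and left of it with equal weights.

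Within the spinous class at 1 day, which leaves out the Krt8-high cells with spinous markers, the family divided. The summed level was higher over the class (831 against 659 CPM) but lower within each of its 2 clusters, which had different weights. The larger control cluster, with 4205 control and 437 ablated cells, gave 377 CPM (control) and 286 CPM (ablated). The other, with 1060 and 554 cells, gave 1236 and 1083 CPM.

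Skint10 was higher in the ablated library within both spinous clusters, at 20.4 and 31.7 CPM in the first and 150 and 234 CPM in the second (log2 ratios 0.63 and 0.65). Skint7 was higher in both too, at 15.6 and 17.5 CPM (0.16, an interval that includes 0) and at 5.48 and 12.3 CPM (1.16, from 73 and 41 UMIs). Skint3 was lower in both, at 27.6 and 18.1 CPM and at 183 and 104 CPM (-0.61 and -0.82). Skint6 was lower in both too, at 53.05 and 29.7 CPM and at 105 and 63.8 CPM (-0.84 and -0.72). Skint4, at 18.3 and 10.99 CPM and at 40.4 and 25.2 CPM, gave -0.73 and -0.68. The intervals of the 8 log2 ratios of Skint10, Skint3, Skint6 and Skint4 did not include 0, while Skint1 had intervals that included 0 in both clusters. Skint2 took opposite signs, at 2.78 and 1.94 CPM in the first (-0.52, from 76 and 3 UMIs) and 23.1 and 33.2 CPM in the second (0.52).

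Over the whole spinous class 2 of 10 members were past 2-fold higher, Skint2 and Skint10, where 5.37% of all genes were, and 0 as far lower (4.6%). With equal weight to the 2 spinous clusters neither was past 2-fold (0.44 and 0.64). Granular markers (8 of 8 detected) in spinous cells were at 318 CPM (control) and 957 CPM (ablated), and upper follicle markers (7 of 7) at 2452 and 4321 CPM. Their part in the spinous calls was not tested. In basal cells 2 of 9 members with enough UMIs were past 2-fold higher (4.62% of all genes), Skint4 and Skint9, from 8 and 12 ablated UMIs, with 0 members as far lower (4.6%). In the bulge Skint2 and Skint9 were past 2-fold higher (3.05%) and 0 members that far lower (1.04%). Cycling cells had 1 of 9 past 2-fold lower (2.47%), Skint7 from 39 and 9 UMIs. Keratinocytes without a class had 4 of 10 past 2-fold higher, where 5.03% of all genes were: Skint9 (11.4 CPM control, 48.1 CPM ablated), Skint11 (9.52 and 21.5 CPM), Skint6 (6.02 and 15.4 CPM) and Skint10 (3.93 and 11.03 CPM). These cells lay in clusters of different weights: one that led with Krt6b and other genes of stressed or cornifying epidermis held 136 control and 542 ablated cells, and another 2373 and 1364. The summed level was higher in the first (277 and 405 CPM) and lower in the second (187 and 157 CPM). Over all no-class cells spinous markers (7 of 7 detected) were at 4775 CPM (control) and 8879 CPM (ablated), and granular markers (8 of 8) at 78.3 and 503 CPM, and their part in the calls was not tested.

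In the granular class, 1833 of the 2407 ablated cells came from a single cluster that held 5 control cells, so the class values compare different clusters. The sum was 1204 CPM in control and 1069 CPM in ablated cells, and the clusters that both libraries filled gave 1467 and 1079 CPM (201 and 310 cells) and 781 and 775 CPM (171 and 264 cells). Skint3 was at 213 CPM in control and 131 CPM in ablated granular cells, and Skint9 at 286 and 343 CPM. Within both clusters that the libraries shared Skint9 was lower in the ablated one, at 345 and 200.4 CPM and at 198 and 168 CPM, so its direction turned. Skint7 was the member past 2-fold higher in this class (5.29 and 20.8 CPM, log2 ratio 1.97) and Skint4 the one past 2-fold lower (18.9 and 8.54 CPM, -1.14). Weighting the shared clusters equally gave 1.01 for Skint7 and -0.74 for Skint4, the latter short of 2-fold. Over all genes of the granular comparison 9.92% were 2-fold higher and 5.5% as far lower. Summed upper follicle markers (7 of 7 detected) in this class were at 30675 CPM (control) and 11275.5 CPM (ablated). Granular markers (8 of 8) were at 14318 and 7521 CPM. Their part in the calls was not tested.

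The upper follicle was the class with the closest cell numbers among those with high Skint levels, 1775 control and 1599 ablated cells at 1 day. There 0 of the 10 members were past 2-fold, with 3.72% of all genes that far higher and 1.28% that far lower. Skint1 was at 96.8 and 89.2 CPM (log2 ratio -0.12, -0.28 to 0.05), Skint9 at 96.7 and 86.1 CPM, and Skint3 at 149 and 109 CPM (-0.45). Skint4, at 49.5 CPM (control) and 28.9 CPM (ablated), had the widest difference among them (-0.78, -1.05 to -0.51).

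Skint4 was lower in the ablated library in 16 of the 18 shared clusters at 1 day and in 5 of 5 at 1 week. Clusters of a time point are parts of the same pair of libraries and not replicates. The share of all genes with such counts was not computed. Of the other members Skint10 was higher in 14 of the 18, Skint2 and Skint9 higher in 12 and Skint1 lower in 12, and at 1 week Skint5 was lower in 5 of 5 too. For Skint5 the 1-week bulge cluster held 1 UMI in each library (0.250 CPM control, 0.239 CPM ablated). Its direction there rests on the library totals alone. The 1-week sebaceous cluster lay under the minimum of 20 UMIs for Skint4 (11.8 CPM control, 2.34 CPM ablated) and for Skint5 (14.1 and 0.779 CPM). The exceptions for Skint4 were the basal cluster, which rested on 25 control and 8 ablated UMIs, and a sebaceous cluster. In the bulge, with 4054 control and 2345 ablated cells at 1 day, it was at 31.1 and 20.2 CPM (-0.62, -0.92 to -0.33), and with 937 and 850 cells at 1 week at 44.3 and 32.8 CPM (-0.43, -0.77 to -0.10). Over the bulge summed markers of that niche were at 15070 and 12357 CPM at 1 day, and their part in the Skint4 values was not tested.

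**Figure D4:**
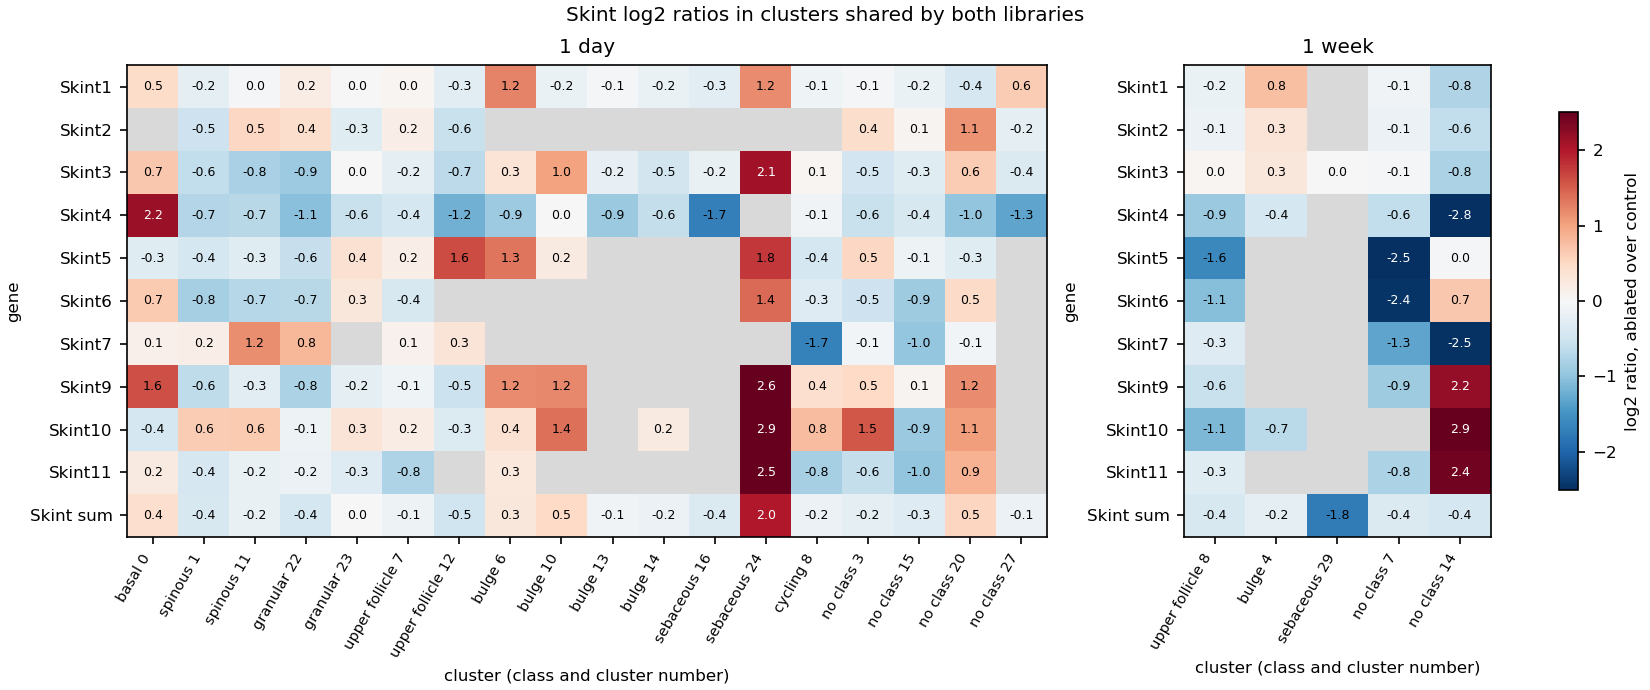
Log2 ratio of the ablated over the control library for each Skint gene (rows) in each keratinocyte cluster with at least 50 cells in both libraries (columns), at 1 day and 1 week. Blank cells had too few UMIs or a library at 0. Skint4 is lower in 16 of 18 clusters at 1 day and 5 of 5 at 1 week, counted with the clusters left blank.

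One week after ablation the summed level over keratinocytes was lower in the ablated library, 357 CPM (350 to 364) where the control held 482 CPM (476 to 489). The log2 ratio was -0.44 (-0.47 to -0.40). Of the 10 members 4 were 2-fold or more lower and 0 that far higher, where 5.55% of all 14156 genes were that far lower and 12.1% that far higher. The median log2 ratio was -0.67 over the members and 0.13 over all these genes.

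The 4 were Skint5, at 60.9 CPM (control) and 11.03 CPM (ablated), a log2 ratio of -2.46 (-2.63 to -2.30), Skint6, at 37.9 and 11.4 CPM (-1.74), Skint7, at 26.2 and 8.31 CPM (-1.66), and Skint10, at 94.99 and 37.3 CPM (-1.35). Skint11 was at 52.6 and 29.9 CPM and Skint4 at 29.4 and 20.4 CPM. Skint3 was higher in the ablated library, at 57.3 and 109 CPM (0.93), as was Skint2, at 16.7 and 27.4 CPM (0.72). With equal weight to the 5 clusters that both libraries shared, both turned direction (-0.14 for Skint3 and -0.16 for Skint2). Skint11 turned to 0.57 and was lower in 4 of the 5 clusters. Among these 4, the bulge (log2 ratio -0.064, with 2 control UMIs) and the sebaceous cluster (1.57 and 0.779 CPM) lay under the minimum of 20 UMIs. Their directions therefore carry little weight. Skint10 with equal weights was at -0.92, short of 2-fold, with 3 clusters lower and 1 higher. Skint9 stood at 55.7 and 59.2 CPM, with an interval that includes 0 and a sign that turned with equal weights (-0.21, with 2 clusters lower and 2 higher). Skint1 was at 50.9 CPM (control) and 42.7 CPM (ablated), a log2 ratio of -0.26 (-0.36 to -0.16).

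Here too the layers differed. The ablated library held 18 basal and 12 spinous cells at 1 week, against 2048 and 1210 in the control, so no ratio can be given for the layers in which Skint5, Skint6, Skint7, Skint10 and Skint11 were highest. Its 143 granular cells held a summed level of 1526 CPM, with Skint3 at 371 CPM, Skint9 at 323 CPM and Skint10 at 269 CPM. Krt8-high cells of the same library held 1088 CPM, with Skint9 at 406 CPM. With those 448 cells counted as keratinocytes, the log2 ratio of the sum was 0.01, 2 members were 2-fold lower (Skint5 and Skint7) and 1, Skint9, was 2-fold higher, where 5.45% and 10.5% of all genes were.

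Among the keratinocyte classes that both 1-week libraries filled, the upper follicle had the highest summed level, with 479 control and 544 ablated cells in 1 cluster. Its summed level was 864 CPM (control) and 653 CPM (ablated), a log2 ratio of -0.40 (-0.48 to -0.33). Skint5 was at 25.7 and 8.43 CPM (-1.61, -2.17 to -1.07), Skint10 at 134 and 61.5 CPM (-1.12, -1.33 to -0.91) and Skint6 at 34.7 and 16.7 CPM (-1.06, -1.48 to -0.64). These 3 were past 2-fold lower, where 2.21% of all genes were, and 0 members were past 2-fold higher, where 8.4% of all genes were.

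Skint4 (82.7 and 43.7 CPM, -0.92) and Skint9 (140 and 95.01 CPM, -0.56) were lower in the ablated upper follicle as well. Skint1 (119 and 106 CPM), Skint2 (79.4 and 72.02 CPM), Skint3 (219 and 227 CPM), Skint7 and Skint11 had intervals that included 0. Summed spinous markers in this class were at 12279 CPM (control) and 7625 CPM (ablated), and upper follicle markers at 59727 and 53582 CPM. Their part in the lower Skint5, Skint6 and Skint10 levels was not tested.

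In the bulge at 1 week 5 of 10 members had at least 20 UMIs and 0 were past 2-fold, where 3.59% of all genes were that far higher and 2.81% that far lower. Keratinocytes without a class, which gave 270 CPM (control) and 202 CPM (ablated) for the sum, had 1 of 10 members past 2-fold higher (9.17% of all genes) and 3 that far lower (9.82%). The first was Skint9 (4.92 CPM control, 29.5 CPM ablated), and the 3 were Skint4 (44.2 and 12.05 CPM), Skint5 (16.7 and 5.6 CPM) and Skint7 (17.6 and 4.04 CPM). Here too the clusters differed in weight: one held 739 control and 392 ablated cells, another 111 and 460, a smaller one 110 and 8, and the rest ablated cells only. In the first the sum was at 251 CPM (control) and 197 CPM (ablated), and in the next at 250.1 and 185 CPM. Spinous markers (7 of 7) of all these cells were at 894 and 9069 CPM and granular markers (8 of 8) at 36.7 and 1088 CPM, and their part in the calls was not tested.

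Skint5 and Skint6 lie next to each other on the minus strand, and both were lower in the ablated library in the 1-week upper follicle and over all 1-week keratinocytes. At 1 day the pair went the same way in some classes and opposite ways in others. Both were lower within each of the 2 spinous clusters (-0.33 and -0.76 with equal weights), both were higher in the bulge (0.74 and 1.00) and in sebaceous cells (1.39 and 1.19), and in cycling cells both intervals included 0. The bulge values, higher in each of 4 clusters, rested on 32 and 21 control UMIs. Within the 2 sebaceous clusters each gene took both signs, -0.19 and 1.78 for Skint5 and -0.64 and 1.41 for Skint6. Opposite signs were found in other units: over keratinocytes the log2 ratio was -0.12 for Skint5 and 0.17 for Skint6, and in the upper follicle 0.41 and -0.29. With equal weight to shared clusters both were at -0.22 over 1-day keratinocytes, so that the opposite direction there was lost, and in the upper follicle at 0.50 and -0.34. Their promoters are the most alike of the 66 pairs in the family, with 222 of 250 upstream bases identical (88.8%), against 57.8% for the next pair and a median of 51.2%. Both are printed whole, in capitals where they differ, at 28 positions. They lie at chr4:113999504-113999753 for Skint5 and chr4:113286974-113287223 for Skint6.
Skint5: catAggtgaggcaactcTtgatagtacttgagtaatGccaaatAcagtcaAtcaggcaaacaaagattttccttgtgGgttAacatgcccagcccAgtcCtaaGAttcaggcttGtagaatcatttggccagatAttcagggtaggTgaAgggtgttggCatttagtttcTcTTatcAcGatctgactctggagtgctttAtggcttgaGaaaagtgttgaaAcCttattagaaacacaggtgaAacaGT
Skint6: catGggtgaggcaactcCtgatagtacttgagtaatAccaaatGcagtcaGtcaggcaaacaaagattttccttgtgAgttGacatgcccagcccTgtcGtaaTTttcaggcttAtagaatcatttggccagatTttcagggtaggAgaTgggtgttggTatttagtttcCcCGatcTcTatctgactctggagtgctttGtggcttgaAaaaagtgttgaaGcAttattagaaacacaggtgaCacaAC
Their exons share 4.05% (Skint5) and 4.64% (Skint6) of 50-base words, so reads of this pair could be split or dropped in counting. Both kits read from 1 end of a transcript, and where the shared words lie was not checked. The part of the reads affected is therefore not known.

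Sebaceous cells, the lipid-filled cells of the gland, showed the widest ratios and the thinnest base for them. At 1 day the summed level was 96.3 CPM in 654 control and 142 CPM in 578 ablated cells, and 5 of 9 members with at least 20 UMIs were past 2-fold higher (6.22% of all genes) and 1, Skint4, past 2-fold lower (2.26%). With equal weight to the 2 clusters of the class Skint4 was at -0.94, short of 2-fold, with the clusters at -1.71 and 0.41. The sum went opposite ways in them at 1 day: it was at 112 and 86.6 CPM in one (515 control and 306 ablated cells) and at 53.5 and 214 CPM in the other (139 and 272 cells). With clusters drawn at resolution 2 the log2 ratio of the class sum turned from 0.56 to -0.28. At 1 week it was 284 CPM in 347 control and 58.5 CPM in 377 ablated cells, with 7 of 8 such members past 2-fold lower (6.44% of all genes) and 0 that far higher (8.02%). Different clusters held the class at 1 week: 201 of the control cells were in a cluster with 2 ablated cells, and 287 ablated cells in clusters with no control cell. The cluster that both filled gave a sum of 44.7 CPM (57 UMIs, 146 control cells) and 13.2 CPM (17 UMIs, 88 ablated cells), with no UMI of Skint9 or Skint10 in either library.

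Spinous markers in sebaceous cells moved with the Skint sum: they were at 1522 CPM (control) and 5548 CPM (ablated) at 1 day, then 6771 and 2525 CPM at 1 week. Granular markers moved with it at 1 day only, at 70.5 CPM (control) and 281 CPM (ablated). At 1 week they went the other way, at 117 and 2389 CPM. The part of either marker list in these Skint values was not tested. The 1-day ablated sebaceous levels, such as 25.1 CPM for Skint9 and 14.4 CPM for Skint10, also lay below those in γδ T cells of that library.

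Cells of other lineages set the level that free RNA or joined cells can give. In γδ T cell clusters the summed Skint level at 1 day was 86.5 CPM (69.3 to 107) in control and 307 CPM (272 to 344) in ablated cells, where Skint9 was at 67.7 CPM and Skint10 at 53.9 CPM. At 1 week those clusters held 2 control and 0 ablated Skint UMIs. Summed keratinocyte markers, 9 of 9 detected, were at 9358 and 17929 CPM in the 1-day γδ T cell clusters and at 767 and 1523 CPM in the 1-week ones. Langerhans cells held 43.7 and 59.1 CPM summed at 1 day, against bulge sums of 67.2 and 70.6 CPM, and 194 and 315 CPM at 1 week, above the bulge and the control basal sums of that time. Single members stood out from this level: in the 1-week control Skint4 was at 11.2 CPM in Langerhans cells and 44.3 CPM in the bulge, and Skint1 at 12.6 CPM in Langerhans and 38.6 CPM in basal cells. The 1-day ablated Skint9 levels of the bulge (7.68 CPM) and of basal cells (7.60 CPM), both past 2-fold above the control, lay at the 7.63 CPM (8 UMIs) of Langerhans cells in that library.

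T cells were set beside these levels, since the family is named for them. Clusters with T cell markers held 759 cells of the 1-day control and 386 of the 1-day ablated library, 3.29% (3.07 to 3.53) and 1.63% (1.47 to 1.79) of cells. At 1 week they held 224 and 116 cells, 1.12% (0.983 to 1.28) and 0.742% (0.613 to 0.889). Of these, γδ T cells were 514 and 259 at 1 day, then 141 and 72 at 1 week. Keratinocyte markers, relative to their level in the whole library, were at 0.304 (control) and 0.769 (ablated) in the 1-day γδ T cell cluster. In the other 1-day T cell cluster they were at 0.263 and 0.643. Both clusters met the naming limit of 0.6 with the libraries pooled, but their ablated cells alone did not. The 1-day ablated T cell counts are less certain for that reason. Per 1000 keratinocytes, T cells were at 36.0 in control and 32.7 in ablated cells at 1 day, and at 36.5 and 37.3 at 1 week. Counting the Krt8-high cells as keratinocytes gave 36.0 and 19.3 for the 1-day pair and 36.5 and 32.6 for the other, a choice made after the data were seen.

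The T cell share of all cells was thus lower in both ablated libraries, while the summed Skint level of keratinocytes was higher in the 1-day one and lower in the 1-week one. The 1-day direction of that level turned with equal weight to shared clusters (-0.15), and with Krt8-high cells the 1-week log2 ratio was 0.01. With 4 libraries no relation between these values can be tested. T cells are shallow, and the lowest UMI count of a listed barcode differed: 500 in both controls, and 1368 and 1059 in the ablated libraries of 1 day and 1 week. With the higher of these minimums applied to both libraries of a pair, the 1-day T cell share was 1.44% in the control library and 1.63% in the ablated one, so its direction turned, and the 1-week shares were 1.70% and 0.742%. Per 1000 keratinocytes these minimums gave 15.1 and 32.7 T cells at 1 day, also turned, and 34.1 and 37.3 at 1 week. With T cells called by at least 2 UMIs of Cd3e, Cd3g, Cd3d and Trdc, 31.0 and 33.1 per 1000 were found 1 day after ablation, and 105 and 71.0 after 1 week, which turned both directions. That call counted cells of all clusters, the mixed ones among them, while the keratinocytes they were divided by leave mixed clusters out. The 1-week values, with most cells in mixed clusters, are therefore not on a like footing with the others.

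**Figure D5:**
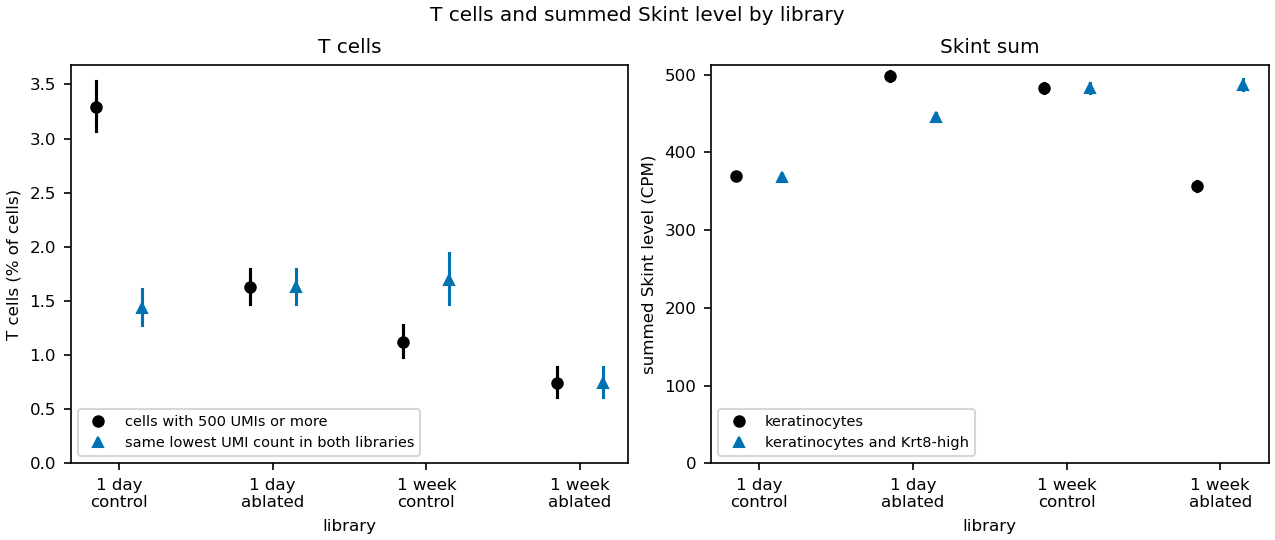
T cells as a percent of cells with exact binomial intervals, with the deposited UMI minimum and with the same minimum in both libraries of a pair, beside the summed Skint level of keratinocytes in CPM with Poisson intervals, for the 4 libraries. The 1-day control share is 3.29% with the deposited minimum and 1.44% with the same minimum.

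Transcripts of the γδ T cells were described from a list of 21 genes, of which 14 had enough UMIs at 1 day in γδ T cell clusters. There 13 of the 14 were 2-fold or more lower in the ablated library, where 13.4% of all genes were, with Trdc, the receptor's constant chain, at 2677 and 598 CPM. The keratinocyte markers given above were higher in the same ablated clusters, and their part was not tested. At 1 week 1 of 12 such genes was past 2-fold higher (Cd160, 58.4 and 122 CPM) and 1 lower (Jaml, which binds Cxadr, 68.7 and 33.8 CPM), where 5.12% and 7% of all genes were. These rest on 17 and 18 UMIs (Cd160) and 20 and 5 UMIs (Jaml), and with a minimum of 50 UMIs 0 of 10 genes were past 2-fold, where 2.7% of all genes were that far higher and 4.48% lower.

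In keratinocytes the same list had 14 genes with enough UMIs at 1 day, 4 of them past 2-fold higher (6.97% of all genes): Areg, Trdv4, Itgae and Gzmc. With a minimum of 50 UMIs this was 1 of 8, Areg (5.55% of all genes). Areg, an epidermal growth factor receptor ligand that keratinocytes make as well, was at 47.9 and 242 CPM, and the other 3 were each under 1 CPM in both libraries. At 1 week 7 had enough UMIs, with Areg higher (82.9 and 170 CPM) and Gzmc lower (1.45 and 0.511 CPM), where 12.1% of all genes were 2-fold higher and 5.55% lower.

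Keratinocyte genes that act on epidermal T cells by other routes were a list of 15, with 11 of them at 20 UMIs or more. At 1 day 0 of the 11 were past 2-fold in either direction, where 6.97% of all genes were that far higher and 2.36% lower. Cxadr, the ligand of the costimulatory receptor Jaml, was at 371 CPM (control) and 422 CPM (ablated), Cdh1 (E-cadherin) at 473 and 520 CPM, Plxnb2, the partner of Sema4d, at 90.3 and 96.5 CPM, and Hspd1 at 157 and 158 CPM. At 1 week Icosl, a costimulatory ligand, was past 2-fold higher (1.69 and 4.597 CPM, log2 ratio 1.44) and Il1b, an inflammatory cytokine, past 2-fold lower (1.52 and 0.647 CPM, -1.23, from 70 and 19 UMIs), 1 of 11 each, where 12.1% and 5.55% of all genes were. Cxadr was then at 366 and 547 CPM and Cdh1 at 495 and 340 CPM.

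The relatives of the family were close to absent from keratinocytes. Of 11 butyrophilin and butyrophilin-like genes listed, Ermap was the one with at least 20 UMIs at 1 day, at 0.196 CPM (control) and 0.114 CPM (ablated) with an interval that includes 0, and none had as many at 1 week. Skint8 was at 3.55 and 5.01 CPM at 1 day (log2 ratio 0.50) and at 9.89 and 4.46 CPM at 1 week (-1.15). In the 1-week upper follicle it was at 37.8 and 12.4 CPM (-1.60), a lower level in the ablated library like those of Skint5, Skint6 and Skint10.

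Krt8-high cells of the ablated libraries held Skint UMIs. Their summed level was 366 CPM (360 to 373) in the 8184 cells of 1 day and 1088 CPM (1063 to 1114) in the 448 cells of 1 week, where the granular classes of the same libraries held 1069 and 1526 CPM. Skint9 was at 123 CPM at 1 day, Skint4 at 6.10 CPM and Skint1 at 34.4 CPM. After thinning, 38.3% (37.2 to 39.4) of the 1-day and 62.6% (57.9 to 67.2) of the 1-week Krt8-high cells held a Skint UMI, against 43.4% and 32.2% of ablated keratinocytes. In γδ T cell clusters of the 1-day ablated library the sum was 307 CPM (272 to 344) and the share 37.8%. The 1-day Krt8-high share thus lay near this background, and the sum above it. Whether those UMIs came from the Krt8-high cells themselves was not tested. The Krt8-high clusters held 17 and 1 control cells, so no ratio to a control can be given, and their Trp63 level was 48.7 and 46.6 CPM.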

How the data were processed

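Epidermal cells were measured by droplet single-cell RNA sequencing in 4 libraries. The deposited values are raw UMI counts, 1 for each gene in each cell barcode, made with Cell Ranger 5.0.1 on build mm10, per the file headers and the submitters' processing notes, and the annotation is not given in the sources used here. The 4 antibody features of each 1-day matrix, named as hashtags, were left out of all totals. No label says what they mark, so no library was split by them.

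Barcodes were kept from 500 UMIs and 300 genes, with no more than 15% of UMIs mitochondrial. Scrublet's own threshold marked at most 0.0443% of a library and did not work, so the highest-scoring barcodes were removed up to 0.8% per 1000 barcodes, 14.7% to 25.5% of a library. Doublets of 1 cell type can remain. This left 23047 (1-day control), 23741 (1-day ablated), 19915 (1-week control) and 15639 (1-week ablated) cells with medians of 4160, 3358, 1378 and 1605 UMIs. Each time point's pair of libraries was clustered jointly (scanpy 1.11.5, leidenalg 0.10.2, resolution 1) without the Skint genes and the fixed gene lists. The cell type marker lists were not left out, so marker levels by class are not independent of the clustering. Clusters were named from these marker lists with limits set after the data were seen.

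UMIs were summed per class and library and given as CPM with exact Poisson intervals, log2 ratios with exact conditional binomial intervals and shares with Clopper-Pearson intervals. A ratio needed at least 20 UMIs over both libraries and 50 cells in each, and past 2-fold means a log2 ratio at or beyond 1 or -1. The ratio step was tested on simulated counts. The members and gene lists were chosen with earlier results of these data known. All members are named, together with Skint8, list genes past 2-fold or up to 4 a list with the most UMIs, and the 5 genes most like the Skint sum. Ccl27a, Btnl7-ps and Trgv5 had no single feature to read. Alternatives covered scaling, depth, doublets, clustering and weighting.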

Additional observations from a re-analysis of the deposited data

Results flagged for a closer look

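Each value here is the 1-week log2 ratio of the ablated over the control library minus the 1-day one, for genes whose 1-day and 1-week counting intervals lay on opposite sides of 0. None of these differences was tested, each group was 1 library, and the kit also differed between the time points, so time and kit cannot be told apart. Over all keratinocytes the difference was -1.91 for Skint6, -2.37 for Skint10, -1.25 for Skint11, -1.65 for Skint8 and -0.87 for the summed members. With equal weight to shared clusters the 1-day ratios of Skint6 (-0.22), Skint11 (-0.09) and the sum (-0.15) turned, as did the 1-week ratio of Skint11 (0.57), so that Skint6 and the sum (-0.42 at 1 week) were lower at both times. In the upper follicle, which both libraries filled at both times, it was -2.01 for Skint5 (log2 ratios of 0.41 and -1.61). In sebaceous cells it was -5.46 for Skint5, -4.16 for Skint6, -3.85 for Skint9, -6.68 for Skint10, -5.12 for Skint11 and -2.84 for the sum, with spinous markers moving in the same directions. The 1-week cluster of that class which both libraries filled held 0 UMIs of Skint9 and Skint10, so their 1-week values came from clusters held almost wholly by 1 library. At resolution 2 the 1-day sebaceous sum was lower too (-0.28).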

How the results depend on the processing

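Of 102 alternative values of the main results, 59 kept their direction and size, 38 moved beyond the counting interval and 5 reversed. For the other values, single members in a class and T cells per 1000 keratinocytes among them, the numbers were 477, 164 and 17 of 658. Some values counted as kept were fixed in advance. The setting with no minimum on UMIs gave the main value by construction, since no listed barcode lay below 500 UMIs. Setting the same lowest UMI count could not change the T cell shares of the ablated libraries, which set that minimum. The 1-day log2 ratio of the summed level in keratinocytes (0.43) was 0.34 with TMM factors, 0.35 with totals that leave out mitochondrial and ribosomal protein genes, 0.67 as a mean over single cells, 0.28 over all cells, 0.39 without doublet removal, 0.47 in barcodes of at least 3000 UMIs, 0.27 with Krt8-high clusters and -0.15 with equal weight to shared clusters. The 1-week one (-0.44) was -0.59, -0.52, -0.18 and -0.19 under the first 4 of these and 0.014 with Krt8-high clusters. By class, the 1-day spinous sum (0.34) was 0.10 at resolution 2, 0.21 with those reduced totals and -0.24 with equal weights. The 1-day granular sum (-0.17) was -0.011 at resolution 2 and -0.28 with equal weights, the sebaceous one (0.56) -0.28 and 0.86, and the cycling one (-0.16) 0.35 at resolution 2. The 1-week sebaceous sum (-2.28) was -3.52 from 3000 UMIs and -1.75 with equal weights.

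Single members reversed at 1 day in keratinocytes: Skint3 over all cells (-0.11), with Krt8-high clusters (-0.17) and with equal weights (-0.37), Skint5 as a mean over cells (0.41), and with equal weights Skint6 (-0.22), Skint9 (-0.16) and Skint11 (-0.086). In spinous cells Skint1 (0.048) and Skint5 (-0.76) reversed at resolution 2, and Skint5 (-0.33), Skint9 (-0.34) and Skint11 (-0.23) with equal weights. Granular Skint9 gave -0.56 with equal weights, and upper follicle Skint11 0.22 at resolution 2. At 1 week equal weights reversed Skint2 (-0.16), Skint3 (-0.14) and Skint11 (0.57, though lower in 4 of 5 clusters), and Skint9, whose interval includes 0, took -0.21. Equal weighting removes differences in cluster size by construction. For the other settings the cause was not tested.

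The share of keratinocytes with a Skint UMI was 19.6% and 27.9% at 1 day and 23.9% and 20.3% at 1 week when thinned to 1000 UMIs, and 46.8%, 51.9%, 59.1% and 50.3% unthinned. With the same lowest UMI count the 1-day control T cell share was 1.44% and the log2 ratio of shares 0.18, and the 1-week control share was 1.70% and the ratio -1.19. By at least 2 T cell marker UMIs the shares were 2.83% (1-day control), 3.22% and 1.41% (1 week), and the ratios -0.79 and -1.19. Without doublet removal the 1-day control share was 3.65% and the ratio -1.23. The T cell list had 1 member past 2-fold at 1 day with at least 50 UMIs, in place of 4. Depth limits the basal, bulge and sebaceous values of members with few UMIs. No paired analysis was possible because each group is 1 library.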
